A study of Mus musculus with 157 samples.

Results

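Bone marrow-derived macrophages from libraries titled Tfe3KO were compared with those titled Tfe3WT after both had been given crystals of calcium pyrophosphate dihydrate (CPPD), the crystal of pseudogout. The comparison took every gene of 6 RNA-seq libraries, 3 of each genotype, out of 157 samples in the whole series. These 6 belong to a set of 24 libraries in which both genotypes also received monosodium urate crystals (MSUc), silica or the buffer PBS, 3 libraries each. Particles were given at 250 ug/mL to cells grown with M-CSF and replated the day before, by a growth protocol that does not name the Tfe3 mice. The labels used here do not give the length of this exposure, the Tfe3 allele, or the age and sex of the mice. They also do not say whether replicates are separate animals, so p-values measure the spread between these libraries. That spread may be technical, except where the sex-linked transcripts below set a library apart. The genotype field reads Tfe3KO for both sets, so the groups rest on the sample titles.

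Levels are TPM, read counts scaled for transcript length and for the total of the library. The Tfe3KO CPPD libraries held 12491958, 9587624 and 13381403 reads and the Tfe3WT CPPD libraries 14643027, 15025046 and 14110937 reads, as recovered from the steps between TPM values. A gene was tested where it reached 1 TPM in at least 3 of the 24 libraries, which left 12796 of 24940 genes, and was called at a Benjamini-Hochberg adjusted p under 0.05 in limma, fitted to log2(TPM + 1) over all 24 libraries. Differences are log2, Tfe3KO minus Tfe3WT, with their standard error, and this scale understates the change of genes with few TPM. All 21 macrophage identity genes looked for were tested, and their TPM summed to 22962 to 24486 in Tfe3KO and 23062 to 27001 in Tfe3WT libraries. The Tfe3KO library numbered 1 stood apart in sex-linked transcripts. Xist, made from the inactive X chromosome, was at 84.6, 5.59 and 1.17 TPM in the Tfe3KO CPPD libraries, against 0.15, 0.06 and 0.05 TPM in Tfe3WT. The Y-linked Ddx3y was at 1.21, 23.97 and 26.3 TPM in Tfe3KO, against 23.1, 20.7 and 18.3 TPM in Tfe3WT. The Tfe3KO libraries numbered 1 of the other treatments showed the same, and the main counts are given with and without these libraries. By these transcripts, the Tfe3KO libraries differed in sex make-up among themselves and from the Tfe3WT libraries. Those numbered 1 thus did not hold the same mix of animals as the other Tfe3KO libraries. The main fit did not block by number, and fits that did are given as alternatives. The part of the sex make-up in the calls was not tested. In whole cultures, fewer cells of a type and less RNA per cell cannot be told apart.

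TFE3 belongs to the MiT/TFE family of basic helix-loop-helix leucine zipper factors, with TFEB, MITF and TFEC. These factors bind E-box-like sites, among them the CLEAR element built around CACGTG, upstream of genes for lysosomal enzymes, the proton pump and autophagy. When amino acids are plentiful, mTORC1 on the lysosome phosphorylates TFE3 and TFEB and holds them in the cytosol, a step that needs the Rag GTPases and folliculin. Starvation or stress to the lysosome lets the factors enter the nucleus.

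Tfe3 transcript was present in every library titled Tfe3KO. The gene (chrX:7762661-7775202, plus strand of mm10; transcript NM_001271490) had 97.7, 85.4 and 96.4 TPM in Tfe3KO libraries, against 102, 98.4 and 108 TPM in Tfe3WT libraries (log2 difference -0.14 ± 0.08, adjusted p = 0.38). The 3 Tfe3KO values lay just below the Tfe3WT values. With PBS, Tfe3 averaged 68.3 ± 1.66 TPM in Tfe3KO and 98.4 ± 5.01 TPM in Tfe3WT cells (log2 difference -0.52 ± 0.08, adjusted p = 0.001), and with silica 37.4 ± 6.03 TPM in Tfe3KO and 54.4 ± 2.99 TPM in Tfe3WT cells (-0.54 ± 0.08, adjusted p = 0.0002). With MSUc the means were 85.7 ± 1.36 TPM in Tfe3KO and 82.1 ± 2.05 TPM in Tfe3WT cells (0.06 ± 0.08, adjusted p = 0.73). The transcript was thus called lower with PBS and silica and not with CPPD or MSUc. The change of this genotype difference between CPPD and PBS did not pass the test (0.38 ± 0.12, adjusted p = 0.14). A count over the whole transcript cannot show a short deletion or a lost protein, so the genotype rests on the titles. Of the other family members, Tfec had 59.9, 57.6 and 56.1 TPM in Tfe3KO libraries, against 38.6, 39.1 and 43.1 TPM in Tfe3WT libraries (log2 difference 0.51 ± 0.13, adjusted p = 0.017), and the groups did not overlap. That call was lost under 5 alternatives, with an adjusted p of 0.07 without the Tfe3KO libraries numbered 1. Mitf (log2 difference 0.23 ± 0.12, adjusted p = 0.29) and Tfeb (log2 difference -0.03 ± 0.09, adjusted p = 0.92) did not pass the test.

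With CPPD, 1036 of the 12796 genes (8.1%) differed between genotypes in limma. Lysosomal, proton pump and nutrient-sensing genes stood among the 594 genes that were lower in Tfe3KO cells (4.64% of those tested), and prostaglandin, cytokine and NF-kappaB genes among the 442 that were higher (3.45%). The falls were the larger changes: 48 genes fell and 8 rose by at least 1 on the log2 scale, and the median size of a called change was 0.49 for falls and 0.37 for rises. The 3 Tfe3KO and 3 Tfe3WT values did not overlap in 1030 of the 1036. Those 1030 count both directions. Among all 12796 genes tested, 1733 had values without overlap in the lower direction alone, and the number in the higher direction is not given here. The calls rest on these same libraries, so the separation adds no support of its own. Fewer genes passed when a library was left out, 670 without Tfe3KO replicate 2, 653 without Tfe3KO replicate 3 and 677 without Tfe3WT replicate 2, and 851 passed without every Tfe3KO library numbered 1. The plot of all genes shows the longer lower arm.

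**Figure D1:**
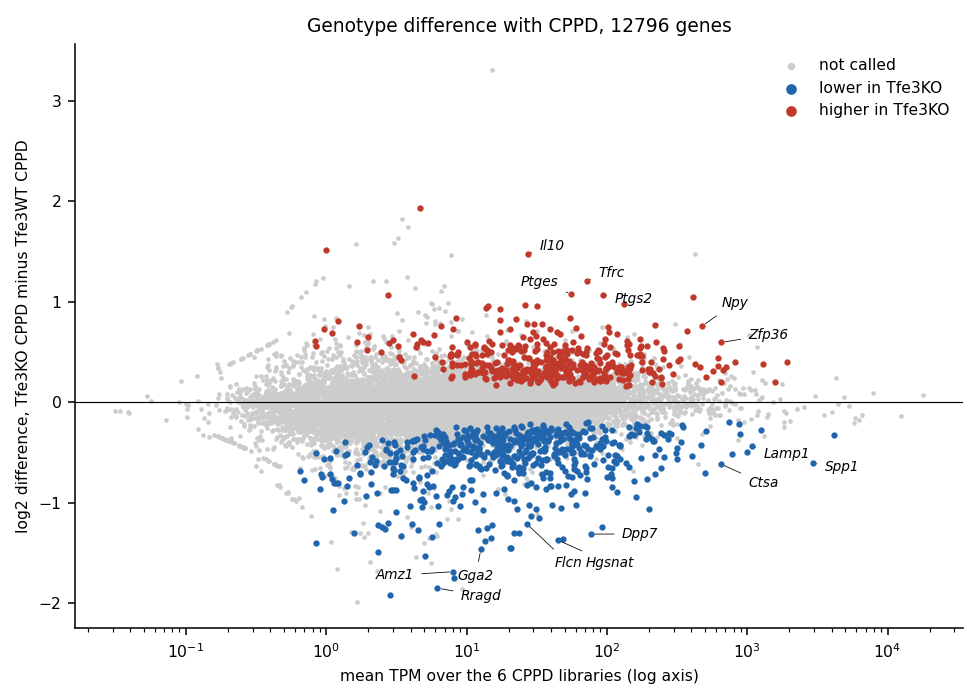
Log2 difference between Tfe3KO and Tfe3WT macrophages with CPPD (y axis) against the mean TPM over the 6 CPPD libraries (x axis, log scale), 1 point per gene for 12796 genes. Called genes are coloured, 442 higher and 594 lower in Tfe3KO; Rragd, Amz1 and Gga2 lie lowest among those labelled, and Il10 and Tfrc highest. The grey point near the top is Xist, which differs among the Tfe3KO libraries.

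The genes that fell are shown first with the sequence in front of some of them, where motifs of the MiT/TFE family can be looked for. A motif does not show that TFE3 binds there. The genes shown are examples and do not give the share of genes with a motif. The windows below run 250 bases before to 50 bases after the start of 6 called genes, 5′ to 3′ along the transcript, from RefSeq on GRCm38.p6, the assembly that mm10 names. Capitals mark CACGTG, its extended palindrome TCACGTGA, which contains it, and TCATGTG, each searched on both strands.
Mcoln1 (chr8:3500269-3500568, plus strand): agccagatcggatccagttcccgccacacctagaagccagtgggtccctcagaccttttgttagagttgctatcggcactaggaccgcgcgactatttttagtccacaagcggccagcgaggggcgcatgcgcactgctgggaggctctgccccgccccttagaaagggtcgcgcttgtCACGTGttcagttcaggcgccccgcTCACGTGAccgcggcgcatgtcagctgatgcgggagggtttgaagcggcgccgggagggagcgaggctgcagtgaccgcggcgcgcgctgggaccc
Dpp7 (chr2:25356283-25356582, minus strand): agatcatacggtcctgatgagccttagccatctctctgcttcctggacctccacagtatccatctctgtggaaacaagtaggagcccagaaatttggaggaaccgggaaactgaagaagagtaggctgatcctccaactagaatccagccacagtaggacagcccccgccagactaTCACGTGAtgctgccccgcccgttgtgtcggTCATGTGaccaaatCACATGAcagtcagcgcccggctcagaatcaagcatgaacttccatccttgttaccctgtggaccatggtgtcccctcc
Gaa (chr11:119267713-119268012, plus strand): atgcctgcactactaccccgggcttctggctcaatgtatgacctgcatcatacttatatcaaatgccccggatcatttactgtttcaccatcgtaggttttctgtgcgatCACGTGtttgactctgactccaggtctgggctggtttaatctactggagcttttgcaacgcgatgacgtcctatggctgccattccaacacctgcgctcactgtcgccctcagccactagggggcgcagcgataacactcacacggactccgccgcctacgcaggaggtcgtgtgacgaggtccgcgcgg
Atp6v0d1 (chr8:105566015-105566314, minus strand): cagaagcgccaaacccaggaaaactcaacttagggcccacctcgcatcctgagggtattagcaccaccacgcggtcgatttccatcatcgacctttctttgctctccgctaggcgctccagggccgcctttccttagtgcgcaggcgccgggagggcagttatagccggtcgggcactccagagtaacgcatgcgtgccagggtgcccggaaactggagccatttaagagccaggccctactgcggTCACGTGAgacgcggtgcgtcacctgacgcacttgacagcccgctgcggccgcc
Rragc (chr4:123917183-123917482, plus strand): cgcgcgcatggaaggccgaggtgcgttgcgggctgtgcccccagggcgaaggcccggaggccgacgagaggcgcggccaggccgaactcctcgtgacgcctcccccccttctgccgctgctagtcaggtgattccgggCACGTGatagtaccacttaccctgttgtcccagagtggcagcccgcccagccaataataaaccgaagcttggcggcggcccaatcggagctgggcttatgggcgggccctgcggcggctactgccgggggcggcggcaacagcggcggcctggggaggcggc
Flcn (chr11:59809990-59810289, minus strand): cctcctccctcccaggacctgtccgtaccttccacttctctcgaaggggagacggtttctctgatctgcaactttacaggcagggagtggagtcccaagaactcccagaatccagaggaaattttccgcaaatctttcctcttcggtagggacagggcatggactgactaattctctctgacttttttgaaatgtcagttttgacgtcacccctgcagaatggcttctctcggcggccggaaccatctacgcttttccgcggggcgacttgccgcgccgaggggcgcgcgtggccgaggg

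Mcoln1 held CACGTG 71 bases and TCACGTGA 46 bases before its start. Dpp7 held TCACGTGA at 74 bases, and TCATGTG at 43 and, on the other strand, 29 bases. Atp6v0d1 carried TCACGTGA 4 bases before the start, and single CACGTG motifs lay at 140 bases in Gaa and 112 bases in Rragc. Flcn had none of these letters in its window. Across the 9273 tested genes with such a window, 10.5% held CACGTG, against 22.3% of the windows of genes lower in Tfe3KO (97 of 435) and 6.44% of those higher (21 of 326). TCACGTGA occurred in 6.44% of the lower and 0.307% of the higher genes' windows, against 2.12% of all. TCATGTG occurred in 6.90% of the lower and 0.92% of the higher, against 2.14% of all. Among the lysosomal genes described next, 14 of 39 windows held CACGTG. That list is named for the CLEAR element built around these letters, so its share adds no separate support. These shares are descriptions of the letters, without a test.

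Of 50 genes on a list of lysosomal CLEAR genes, 27 were lower and 1 was higher in Tfe3KO cells with CPPD. Their median difference was -0.34, where the median over all genes tested was 0.00. Membership of the list does not show that a gene is bound by TFE3. Among enzymes of the lumen, Gaa (chr11:119267963-119285458, plus strand), which digests glycogen, had 27.6, 27.1 and 25.4 TPM in Tfe3KO libraries, against 66.8, 72.7 and 71.2 TPM in Tfe3WT libraries (log2 difference -1.36 ± 0.08, adjusted p = 1.7e-09). The sialidase Neu1 had 18.1, 18.4 and 16.4 TPM in Tfe3KO libraries, against 38.6, 41.3 and 39.6 TPM in Tfe3WT libraries (log2 difference -1.13 ± 0.08, adjusted p = 8.8e-09). Hgsnat, which acetylates heparan sulphate for its breakdown, had 25.7, 24.9 and 22.7 TPM in Tfe3KO libraries, against 80.3, 60.4 and 56.00 TPM in Tfe3WT libraries (log2 difference -1.37 ± 0.13, adjusted p = 7.6e-07). In each of the 3 genes the Tfe3KO values were close together and less than any Tfe3WT value by a wide margin. Gaa and Hgsnat were also named by size, which required groups without overlap. The peptidase Dpp7 (chr2:25352290-25356332, minus strand) had 48.3, 43.7 and 39.6 TPM in Tfe3KO libraries, against 106, 114 and 110.2 TPM in Tfe3WT libraries (log2 difference -1.31 ± 0.11, adjusted p = 1.4e-07). Tpp1, a tripeptidyl peptidase, had 84.4, 83.4 and 79.99 TPM in Tfe3KO libraries, against 152, 153 and 157 TPM in Tfe3WT libraries (log2 difference -0.89 ± 0.05, adjusted p = 2.5e-09). Ctsa, which shields Neu1 from degradation, had 519.8, 499 and 523 TPM in Tfe3KO libraries, against 785, 767 and 807 TPM in Tfe3WT libraries (log2 difference -0.61 ± 0.06, adjusted p = 3.4e-07). These 6 enzyme genes were all lower, and the abundant Ctsa differed by less than Gaa.

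Proteins of the lysosomal membrane followed. Mcoln1 (chr8:3500519-3515231, plus strand), the calcium channel TRPML1, had 17.3, 20.2 and 16.6 TPM in Tfe3KO libraries, against 37.9, 39.4 and 35.1 TPM in Tfe3WT libraries (log2 difference -1.02 ± 0.07, adjusted p = 8.3e-09). Ctns, the cystine exporter, had 15.6, 13.8 and 13.99 TPM in Tfe3KO libraries, against 31.6, 32.1 and 29.7 TPM in Tfe3WT libraries (log2 difference -1.06 ± 0.08, adjusted p = 3e-08). Lamp1, the most abundant coat protein of the membrane, had 919, 924 and 902 TPM in Tfe3KO libraries, against 1230, 1291 and 1196 TPM in Tfe3WT libraries (log2 difference -0.44 ± 0.07, adjusted p = 0.00018). Both transporters were at under a log2 difference of -1 and Lamp1 changed less, with no overlap between groups in any of them. Acp2, a lysosomal acid phosphatase, was the only list member called higher (log2 difference 0.30 ± 0.07, adjusted p = 0.0087), and it lost the call without Tfe3WT replicate 2 (adjusted p = 0.059). Summed over the list, the TPM were 24885 to 25465 in Tfe3KO and 27261 to 28766 in Tfe3WT libraries. Leaving out any one library kept the number of lower members between 22 and 26, and 24 were lower without the Tfe3KO libraries numbered 1.

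The V-ATPase is the proton pump that acidifies lysosomes. Of 17 of its subunits and accessory proteins, 11 were lower and 0 higher (13 had an unadjusted p under 0.05), with a median of -0.33, and their summed TPM were 2634 to 2721 in Tfe3KO against 3241 to 3573 in Tfe3WT libraries. Atp6v0d1 (chr8:105524461-105566064, minus strand), which joins the membrane sector to the catalytic one, had 117, 114 and 115 TPM in Tfe3KO libraries, against 198, 206 and 193 TPM in Tfe3WT libraries (log2 difference -0.78 ± 0.08, adjusted p = 2.8e-06). Atp6v1d, part of the central stalk, had 81.3, 85.5 and 77.3 TPM in Tfe3KO libraries, against 133, 140.2 and 128 TPM in Tfe3WT libraries (log2 difference -0.71 ± 0.08, adjusted p = 7.9e-06). The accessory protein Atp6ap2 had 72.3, 72.2 and 80.5 TPM in Tfe3KO libraries, against 137, 120.2 and 122 TPM in Tfe3WT libraries (log2 difference -0.74 ± 0.07, adjusted p = 8.6e-07). The spread within a genotype was small beside these gaps. The remaining 8 lower members, Atp6v1b2, Atp6v1c1, Atp6v1e1, Atp6v1f, Atp6v1g1, Atp6v1h, Atp6v0b and Atp6ap1, fell by 0.23 to 0.52 on the log2 scale. Between 8 and 12 subunits passed when a library was left out.

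Of 12 genes for folliculin, its partners, the Rag GTPases and the Ragulator scaffold, 6 were lower and 0 higher, with a median of -0.37, and 4 to 5 were lower when a library was left out. Rragd (chr4:32982998-33022180, plus strand), the GTPase RagD, had 2.92, 1.96 and 1.54 TPM in Tfe3KO libraries, against 11.1, 11.9 and 7.85 TPM in Tfe3WT libraries (log2 difference -1.85 ± 0.18, adjusted p = 1.4e-06), the largest fall among the genes named by size. Flcn (chr11:59791408-59810039, minus strand), the GTPase-activating protein that acts on RagC and RagD, had 18.1, 14.4 and 15.3 TPM in Tfe3KO libraries, against 37.4, 38.9 and 37.6 TPM in Tfe3WT libraries (log2 difference -1.21 ± 0.07, adjusted p = 1.7e-09). Rragc (chr4:123917433-123936997, plus strand), encoding RagC, had 93.05, 91.6 and 92.9 TPM in Tfe3KO libraries, against 146, 148 and 128 TPM in Tfe3WT libraries (log2 difference -0.60 ± 0.07, adjusted p = 3.8e-06). RagD was scarce next to RagC on this length-scaled measure and differed more. The folliculin partner Fnip1 (log2 difference -0.38 ± 0.09, adjusted p = 0.011) and the Ragulator subunits Lamtor3 and Lamtor4 were also lower, although Fnip1 lost its call without Tfe3WT replicate 2 (adjusted p = 0.073) and Lamtor4 under 10 of 16 alternatives.

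Autophagy genes split. Of 30, 8 were lower and 2 higher, with a median of -0.07. Vps18, a core subunit of the HOPS tether that fuses vesicles with lysosomes, had 43.7, 38.5 and 42.9 TPM in Tfe3KO libraries, against 71.2, 75.2 and 65.2 TPM in Tfe3WT libraries (log2 difference -0.74 ± 0.07, adjusted p = 7.9e-07). Tecpr1, which links autophagosomes to lysosomes, had 29.6, 29.00 and 25.1 TPM in Tfe3KO libraries, against 51.5, 55.5 and 44.2 TPM in Tfe3WT libraries (log2 difference -0.83 ± 0.09, adjusted p = 6.9e-06). Gabarapl1, one of the ATG8 proteins that coat the autophagosome, had 109, 98.7 and 116 TPM in Tfe3KO libraries, against 166, 165 and 163 TPM in Tfe3WT libraries (log2 difference -0.61 ± 0.09, adjusted p = 0.00018). These 3 and Uvrag (log2 difference -0.40 ± 0.09, adjusted p = 0.008) kept their calls under all 16 alternatives. The other lower members, Gabarap, Atg7, Optn and Vps11, and the higher Tax1bp1 and Rb1cc1 did not, and 5 genes were called lower without Tfe3KO replicate 2, 4 without Tfe3KO replicate 3 and 5 without Tfe3WT replicate 1.

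**Figure D2:**
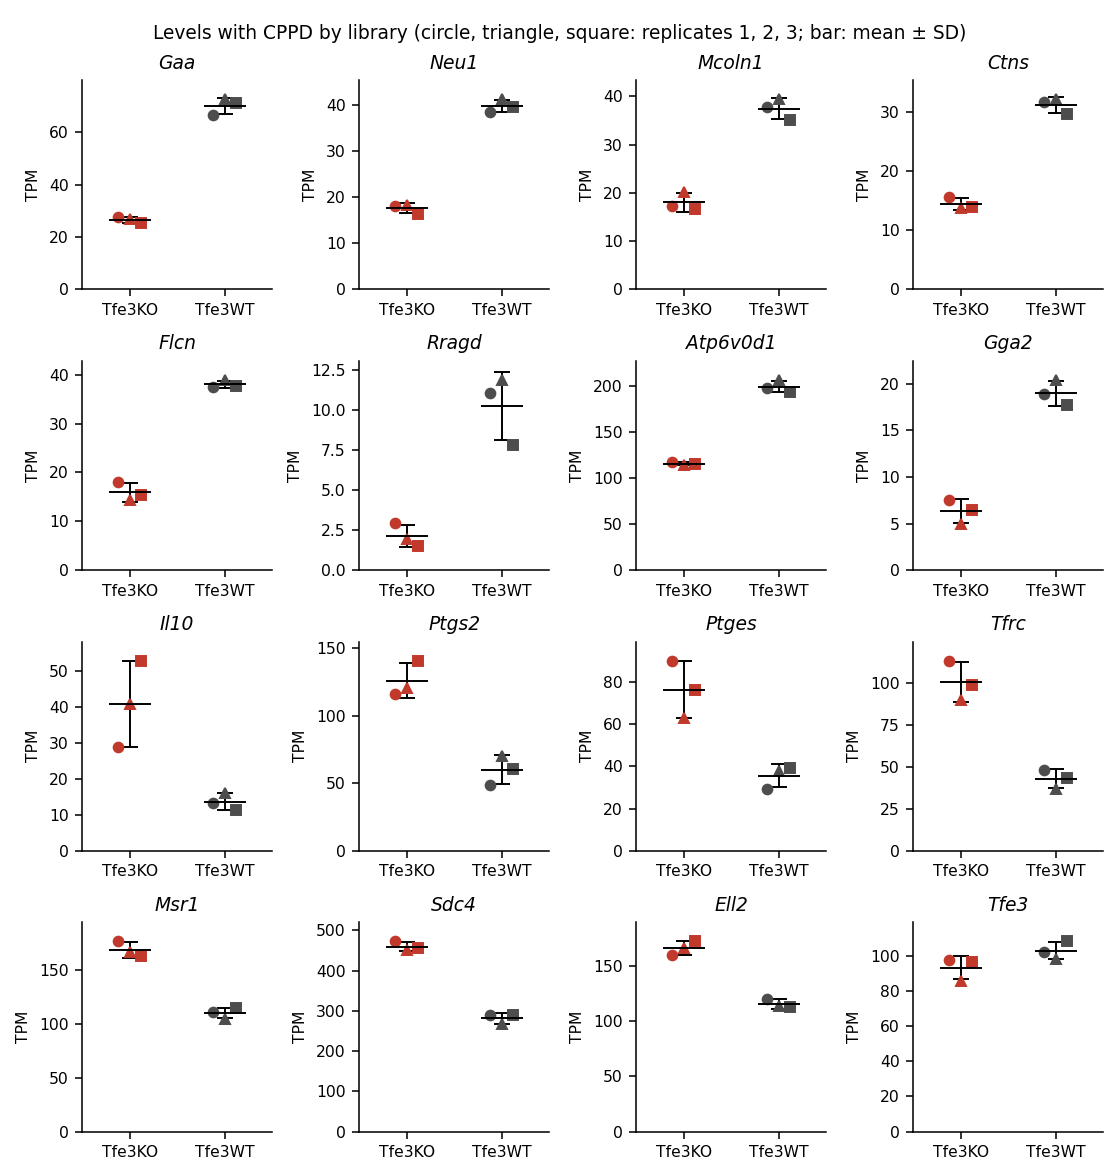
TPM (y axis, linear from 0) of 16 genes in each CPPD library, Tfe3KO left of Tfe3WT, with 1 point per library and bars for mean ± SD (n = 3). The 8 genes of the lysosome, pump, Rag module and sorting (Gaa to Gga2) lie lower in every Tfe3KO library than in any Tfe3WT library, Il10, Ptgs2, Ptges, Tfrc, Msr1, Sdc4 and Ell2 lie higher, and Tfe3 is at 85.4 to 97.7 TPM in Tfe3KO and 98.4 to 108 TPM in Tfe3WT.

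Outside the lists, the 15 largest falls among genes with at least 5 TPM on average held further genes of sorting and sugar metabolism. Gga2, an adaptor that carries mannose 6-phosphate receptors from the Golgi towards lysosomes, had 7.56, 4.99 and 6.42 TPM in Tfe3KO libraries, against 18.9, 20.4 and 17.7 TPM in Tfe3WT libraries (log2 difference -1.46 ± 0.11, adjusted p = 5.5e-08). Amz1, a zinc metalloprotease, had 3.37, 2.94 and 3.55 TPM in Tfe3KO libraries, against 13.2, 14.8 and 10.6 TPM in Tfe3WT libraries (log2 difference -1.68 ± 0.15, adjusted p = 3.3e-07). Gnpda1, which converts glucosamine 6-phosphate to fructose 6-phosphate, had 11.8, 10.99 and 8.92 TPM in Tfe3KO libraries, against 28.2, 32.2 and 30.9 TPM in Tfe3WT libraries (log2 difference -1.45 ± 0.12, adjusted p = 1.4e-07). Each was well under the Tfe3WT level in all 3 Tfe3KO libraries. Naming by size required groups without overlap, so this separation adds no support. The fucosidase gene Fuca2 had 7.06, 7.93 and 6.32 TPM in Tfe3KO libraries, against 20.2, 21.1 and 18.6 TPM in Tfe3WT libraries (log2 difference -1.37 ± 0.12, adjusted p = 2.7e-07). Vegfb, a growth factor of the VEGF family, had 12.01, 10.00 and 10.2 TPM in Tfe3KO libraries, against 30.5, 34.01 and 28.6 TPM in Tfe3WT libraries (log2 difference -1.45 ± 0.19, adjusted p = 3.5e-05). Stac2 (log2 difference -1.75 ± 0.23, adjusted p = 4.6e-05), the O-mannose kinase Pomk (log2 difference -1.33 ± 0.19, adjusted p = 7.7e-05), the thioesterase Acot13 (log2 difference -1.30 ± 0.14, adjusted p = 3.6e-06), the haem-binding Hebp1 (log2 difference -1.27 ± 0.15, adjusted p = 8.9e-06) and Bex3 (log2 difference -1.30 ± 0.16, adjusted p = 2.3e-05) made up most of the rest. Gm8615 (log2 difference -1.53 ± 0.16, adjusted p = 1.8e-06) is annotated as a transcribed pseudogene, so its reads may be shared with its parent gene and its value is uncertain. Of 12 lipid-associated macrophage genes, 3 were lower and 0 higher, with a median of -0.11. The phosphoprotein osteopontin, Spp1, had 2284, 2496 and 2233 TPM in Tfe3KO libraries, against 3572, 3904 and 3217 TPM in Tfe3WT libraries (log2 difference -0.60 ± 0.09, adjusted p = 0.00017). Itgax, the integrin CD11c, had 9.09, 7.17 and 6.17 TPM in Tfe3KO libraries, against 15.6, 15.8 and 15.6 TPM in Tfe3WT libraries (log2 difference -0.99 ± 0.15, adjusted p = 0.00027), and Cstb was the other (log2 difference -0.21 ± 0.06, adjusted p = 0.045). Cstb lost its call under 9 of 16 alternatives, with an adjusted p of 0.17 without Tfe3KO replicate 3. Gas6, which bridges dying cells to TAM receptors, was lower too (log2 difference -0.61 ± 0.09, adjusted p = 0.00012). Of 13 Bhlhe repressor and clock genes, 2 were lower and 0 higher, the repressors Bhlhe41 (log2 difference -0.73 ± 0.11, adjusted p = 0.00026) and Cry1 (log2 difference -0.65 ± 0.14, adjusted p = 0.0051), with a median of -0.05.

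Genes of inflammation were among those that rose. Of 29 cytokine, chemokine and related genes, 7 were higher and 1 lower in Tfe3KO cells, with a median of 0.38. Summed over the list, the TPM overlapped, at 4634 to 5174 in Tfe3KO and 3815 to 5250 in Tfe3WT libraries. Il10 (chr1:131019845-131024970, plus strand), a cytokine that dampens macrophage activation, had 28.96, 40.8 and 52.9 TPM in Tfe3KO libraries, against 13.4, 16.2 and 11.5 TPM in Tfe3WT libraries (log2 difference 1.48 ± 0.25, adjusted p = 0.00068). Its Tfe3KO values spread widely and all exceeded every Tfe3WT value, which naming by size required. Ptgs2, cyclooxygenase-2, had 117, 121 and 141 TPM in Tfe3KO libraries, against 49.2, 70.6 and 60.5 TPM in Tfe3WT libraries (log2 difference 1.07 ± 0.19, adjusted p = 0.00092). Ptges, the synthase that makes prostaglandin E2 from its product, had 89.97, 62.7 and 76.2 TPM in Tfe3KO libraries, against 29.2, 37.9 and 39.3 TPM in Tfe3WT libraries (log2 difference 1.08 ± 0.17, adjusted p = 0.00029). The pair of prostaglandin enzymes thus stood at about a log2 difference of 1 each. Il1a (log2 difference 0.93 ± 0.23, adjusted p = 0.016), Csf3 (log2 difference 0.81 ± 0.14, adjusted p = 0.00071), Csf2 (log2 difference 0.73 ± 0.20, adjusted p = 0.029), the inflammasome sensor Nlrp3 (log2 difference 0.47 ± 0.12, adjusted p = 0.024) and Tnfsf9 (log2 difference 0.60 ± 0.15, adjusted p = 0.014) were the other members called higher. Csf2 and Csf3 were at 2.11 TPM or less in every CPPD library. Osm, a cytokine of the interleukin-6 family, went the other way, with 16.8, 16.2 and 15.7 TPM in Tfe3KO libraries, against 23.9, 30.5 and 21.4 TPM in Tfe3WT libraries (log2 difference -0.60 ± 0.11, adjusted p = 0.0016). Il10, Ptgs2 and Osm kept their calls under all 16 alternatives. The number called higher was 4 without Tfe3KO replicate 2, 3 without Tfe3WT replicate 1, 4 with a pseudocount of 0.1, and 8 without the Tfe3KO libraries numbered 1. Il1a, Csf2, Nlrp3, Tnfsf9 and Csf3 each lost their call under at least 1 alternative. The highest adjusted p-values were 0.26 for Csf2, 0.14 for Il1a and 0.091 for Csf3, all with the pseudocount of 0.1, 0.094 for Nlrp3 without Tfe3KO replicate 3 and 0.085 for Tnfsf9 without Tfe3WT replicate 1.

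Of 14 NF-kappaB subunits and brakes, 6 were higher and 0 lower, with a median of 0.29. Nfkbia, the inhibitor IkappaB-alpha, had 476, 459.8 and 517 TPM in Tfe3KO libraries, against 372, 384 and 355 TPM in Tfe3WT libraries (log2 difference 0.39 ± 0.07, adjusted p = 0.00075). Bcl3, a nuclear IkappaB protein, had 111, 112 and 120.1 TPM in Tfe3KO libraries, against 70.9, 77.6 and 80.5 TPM in Tfe3WT libraries (log2 difference 0.58 ± 0.12, adjusted p = 0.0046). Nfkbiz, its relative IkappaB-zeta, had 42.7, 47.2 and 51.4 TPM in Tfe3KO libraries, against 30.9, 36.8 and 28.3 TPM in Tfe3WT libraries (log2 difference 0.55 ± 0.12, adjusted p = 0.0066). These 3 kept their calls under all 16 alternatives. Relb, Nfkb2 and Tnip3 (log2 difference 0.40 ± 0.11, adjusted p = 0.026) did not, and without Tfe3WT replicate 3 the count was 3. The cytokine signalling brake Socs3 had 161, 178 and 193 TPM in Tfe3KO libraries, against 83.4, 97.8 and 87.2 TPM in Tfe3WT libraries (log2 difference 0.98 ± 0.21, adjusted p = 0.0047).

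Immediate early genes gave 5 higher and 0 lower of 30, with a median of 0.19. Zfp36, which hastens the decay of cytokine mRNA, had 735, 808 and 821 TPM in Tfe3KO libraries, against 496, 549 and 517 TPM in Tfe3WT libraries (log2 difference 0.60 ± 0.11, adjusted p = 0.0017). Its relative Zfp36l1, named by the size of its rise, had 34.6, 44.3 and 37.1 TPM in Tfe3KO libraries, against 21.9, 21.3 and 22.6 TPM in Tfe3WT libraries (log2 difference 0.78 ± 0.09, adjusted p = 7.6e-06). Fos, Junb, Klf6 and Ier2 completed the 5, and each lost its call under at least 1 alternative. The count was 2 without Tfe3KO replicate 2, 2 without Tfe3KO replicate 3, 3 without Tfe3WT replicate 3 and 8 without the Tfe3KO libraries numbered 1. Among 12 genes of the histone methyltransferase DOT1L and its elongation partners, 4 were higher and 0 lower, with a median of 0.13. Ell2, an elongation factor of RNA polymerase II, had 159.7, 166 and 172 TPM in Tfe3KO libraries, against 120.3, 113 and 112 TPM in Tfe3WT libraries (log2 difference 0.52 ± 0.06, adjusted p = 7.9e-06), and Mllt6 (log2 difference 0.37 ± 0.06, adjusted p = 0.00023) rose by less. Aff1 and Ccnt1 were not called without Tfe3KO replicate 1, Tfe3KO replicate 3, Tfe3WT replicate 1 or Tfe3WT replicate 3, so that 2 remained.

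Of 14 efferocytosis and scavenger receptor genes tested, Msr1 was higher and Cd36 and Gas6 were lower, with a median of -0.03. Further surface, uptake and secreted proteins were named by size or as members of other lists. Tfrc, the transferrin receptor, had 113, 89.5 and 98.7 TPM in Tfe3KO libraries, against 48.3, 36.9 and 43.4 TPM in Tfe3WT libraries (log2 difference 1.21 ± 0.15, adjusted p = 2.3e-05). Msr1, a scavenger receptor of modified lipoproteins, had 176, 166 and 162 TPM in Tfe3KO libraries, against 111, 104 and 114 TPM in Tfe3WT libraries (log2 difference 0.61 ± 0.08, adjusted p = 2.3e-05). Fcgr1, the high-affinity receptor for IgG, had 112, 145 and 130.2 TPM in Tfe3KO libraries, against 80.3, 79.8 and 75.5 TPM in Tfe3WT libraries (log2 difference 0.71 ± 0.08, adjusted p = 9.2e-06). In all of them the lowest Tfe3KO library exceeded the highest Tfe3WT library, which for Tfrc the naming by size required. The heparan sulphate proteoglycan Sdc4 had 473, 450.3 and 457 TPM in Tfe3KO libraries, against 289, 266 and 289 TPM in Tfe3WT libraries (log2 difference 0.71 ± 0.07, adjusted p = 8.6e-07). Tgfbi, a secreted matrix protein, had 661, 545 and 453 TPM in Tfe3KO libraries, against 246, 240.3 and 308 TPM in Tfe3WT libraries (log2 difference 1.05 ± 0.22, adjusted p = 0.0039). Fchsd2, a membrane-bending protein of endocytosis, had 41.2, 41.3 and 43.3 TPM in Tfe3KO libraries, against 22.6, 21.1 and 19.7 TPM in Tfe3WT libraries (log2 difference 0.96 ± 0.10, adjusted p = 1.3e-06). The nucleoside transporter Slc28a2 had 18.1, 18.99 and 17.7 TPM in Tfe3KO libraries, against 8.53, 9.89 and 8.77 TPM in Tfe3WT libraries (log2 difference 0.94 ± 0.12, adjusted p = 2.7e-05), and it has a close paralog, Slc28a2b, with which it may share reads. Eps8, Itgb7, Noct and Npy rose by 0.76 to 0.84. The chemokine Ccl22 (log2 difference 0.97 ± 0.24, adjusted p = 0.014) and Nptx1 (log2 difference 0.96 ± 0.29, adjusted p = 0.047) were called too, but not without Tfe3WT replicate 1 (Ccl22, adjusted p = 0.087) or Tfe3KO replicate 2 (Nptx1, adjusted p = 0.22).

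Lipid-handling genes were divided, with 4 higher and 4 lower of 23 and a median of 0.07. Msr1 and the liver X receptor gene Nr1h3 (log2 difference 0.57 ± 0.12, adjusted p = 0.0037) rose and kept their calls under all 16 alternatives. The exporter Abcg1 (log2 difference 0.66 ± 0.17, adjusted p = 0.019) and the lipase Lipe (log2 difference 0.39 ± 0.11, adjusted p = 0.033) were called higher, and the fatty acid transporter Cd36 (log2 difference -0.54 ± 0.13, adjusted p = 0.013), Fabp4 (log2 difference -0.55 ± 0.13, adjusted p = 0.012), Olr1 (log2 difference -0.70 ± 0.19, adjusted p = 0.023) and the esterifying enzyme Soat1 (log2 difference -0.26 ± 0.06, adjusted p = 0.0094) lower. Each of these 6 lost its call when some library was left out, the lower count being 1 without Tfe3KO replicate 2 and 2 without either Tfe3KO replicate 3 or Tfe3WT replicate 1. The higher count was 2 without Tfe3KO replicate 2 and 2 without Tfe3KO replicate 3.

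**Figure D3:**
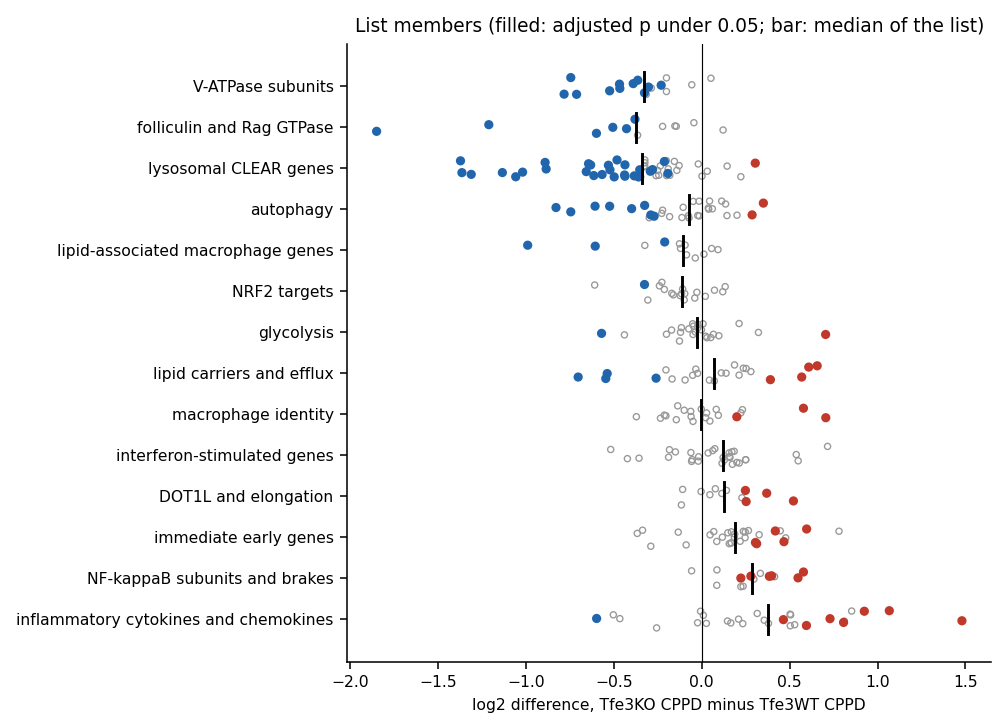
Log2 difference between Tfe3KO and Tfe3WT with CPPD (x axis) for the tested members of 14 gene lists (y axis), 1 point per gene. Filled points passed the test, blue lower and red higher in Tfe3KO; the black bar is the median of the list. The V-ATPase, folliculin and Rag, and lysosomal medians lie between -0.37 and -0.33, and the inflammatory and NF-kappaB medians at 0.38 and 0.29.

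Several other lists held 2 calls or fewer each. None of 30 interferon-stimulated genes was called (1 had an unadjusted p under 0.05, and limma-voom on recovered reads called 0), and their summed TPM overlapped, 1809 to 2765 in Tfe3KO against 1526 to 2942 in Tfe3WT libraries. The sign of their median depended on the setting, from -0.11 to 0.32 over the alternatives. Of 19 NRF2 targets, Hmox1 was the 1 called, and it was lower (log2 difference -0.33 ± 0.09, adjusted p = 0.034; adjusted p = 0.18 without Tfe3WT replicate 3). Calls were made for 1 of 23 integrated stress response genes (4.35% lower) and 2 of 24 glycolysis genes (4.17% higher and 4.17% lower). For cholesterol synthesis they were made for 2 of 20 genes (10.0% lower). Of all genes tested, 8.1% were called, so the glycolysis and cholesterol lists were not short of calls. Neither the 21 cell cycle, 13 hypoxia and growth factor nor 9 AMPK genes gave a call (1, 2 and 4 had an unadjusted p under 0.05, and limma-voom called 0 in each). MHC class II genes had a median of 0.45, with summed TPM of 6228 to 8314 in Tfe3KO and 4989 to 5677 in Tfe3WT libraries, and their activator Ciita was the only one of 10 called (log2 difference 0.59 ± 0.16, adjusted p = 0.027; adjusted p = 0.13 without Tfe3KO replicate 3).

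Marker lists of macrophages and of other cells were measured as well. Of the 21 macrophage identity genes, 3 were called higher, among them Fcgr1 and Spi1, and 0 lower. Neutrophil markers summed to 390 to 673 TPM in Tfe3KO and 486 to 917 TPM in Tfe3WT libraries, with Csf3r the only one of 11 called (log2 difference 0.60 ± 0.14, adjusted p = 0.0071; adjusted p = 0.054 without Tfe3WT replicate 2). Dendritic cell markers summed to 39.8 to 70.4 TPM in Tfe3KO and 45.2 to 57.1 TPM in Tfe3WT libraries with 0 of 8 called (2 had an unadjusted p under 0.05). Stromal markers summed to 2310 to 2871 TPM in Tfe3KO and 2032 to 2449 TPM in Tfe3WT libraries. Of these 12, Vim alone was called (log2 difference 0.40 ± 0.10, adjusted p = 0.013; adjusted p = 0.084 without Tfe3WT replicate 3), a gene that macrophages also express. Mast cell and lymphocyte markers summed to 18.7 TPM or less in every CPPD library, with 2 mast cell markers at 0 and Cd4, 1 of 5 lymphocyte markers tested, called higher. The median log2 differences were -0.29 for stromal, -0.25 for neutrophil, -0.20 for lymphocyte, -0.13 for mast cell and 0.05 for dendritic cell markers, where the median over all genes was 0.00. The part of any of these in the results above was not tested.

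Tfe3 lies on the X chromosome, and its neighbours were counted. Of 41 tested genes within 5 Mb of Tfe3, 3 were lower and 0 higher, where 4.64% of all genes tested were lower and 3.45% higher. They were Atp6ap2, Lancl3 (log2 difference -1.30 ± 0.15, adjusted p = 7.9e-06) and Ccdc22 (log2 difference -0.52 ± 0.10, adjusted p = 0.0031). Whether their position plays a part was not tested.

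The genotype difference was then set against that in PBS. A total of 119 genes (0.93%) had a genotype difference that differed between CPPD and PBS in the interaction contrast of limma, 43 upward (0.336%) and 76 downward (0.594%), and 252 passed when libraries sharing a genotype and number were treated as a random block. Without Tfe3KO CPPD replicate 2, the count was 78, without Tfe3WT CPPD replicate 1 it was 70 and without Tfe3WT CPPD replicate 2 it was 67. Leaving out a Tfe3KO PBS library gave 327 without replicate 1, 70 without replicate 2 and 70 without replicate 3. Without all Tfe3KO libraries numbered 1 the count was 170, 57 upward and 113 downward, and 91 of these were among the 119. In PBS itself, 303 genes (2.37%) differed by genotype. Of the 50 lysosomal genes, 8 had a difference further down with CPPD and 0 further up. Among them were Gaa, Neu1, Ctns, Mcoln1 and Naglu, which were also called lower with CPPD. Npc1 and Sgsh were among them too but were not called lower with CPPD itself (adjusted p = 0.15 for Npc1 and 0.064 for Sgsh). Npc1 was higher in Tfe3KO cells with PBS (log2 difference 0.26, adjusted p = 0.014). Sgsh lost its difference from PBS under 11 of 22 alternatives and Npc1 under 2.

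For several of the falls, the gap between genotypes was wider with CPPD than with PBS. With CPPD Gaa averaged 26.7 ± 1.16 TPM in Tfe3KO and 70.2 ± 3.09 TPM in Tfe3WT cells (SD, n = 3 each), and with PBS 41.3 ± 3.60 TPM in Tfe3KO and 62.7 ± 4.15 TPM in Tfe3WT cells (difference of differences -0.77 ± 0.11, adjusted p = 0.00094). With CPPD Amz1 averaged 3.29 ± 0.313 TPM in Tfe3KO and 12.9 ± 2.08 TPM in Tfe3WT cells (SD, n = 3 each), and with PBS 5.97 ± 0.712 TPM in Tfe3KO and 7.04 ± 1.13 TPM in Tfe3WT cells (-1.48 ± 0.21, adjusted p = 0.00094). For Slc25a44, a mitochondrial carrier of branched-chain amino acids, the means with CPPD were 14.3 ± 0.594 TPM in Tfe3KO and 29.3 ± 2.27 TPM in Tfe3WT cells, and with PBS 13.8 ± 1.05 TPM in Tfe3KO and 14.7 ± 0.741 TPM in Tfe3WT cells (-0.89 ± 0.10, adjusted p = 8.6e-05). Slc25a44 and Amz1 were thus at like levels in PBS and apart with CPPD, while Gaa was already lower in PBS. Within each genotype, the log2 change of Slc25a44 over CPPD minus PBS was 0.06 ± 0.07 in Tfe3KO and 0.95 ± 0.07 in Tfe3WT cells, and that of Amz1 was -0.70 ± 0.15 in Tfe3KO and 0.79 ± 0.15 in Tfe3WT cells. These within-genotype values share their libraries with the differences above. Of the 50 lysosomal genes, 7 rose and 36 fell with CPPD against PBS in Tfe3KO cells, and 12 rose and 18 fell in Tfe3WT cells, where 19.3% of all genes rose and 41.9% fell in Tfe3KO cells (61.2% called), and 18.5% rose and 41.7% fell in Tfe3WT cells (60.2%). Of the 17 pump genes, 8 rose and 1 fell in Tfe3KO cells, and 11 rose and 0 fell in Tfe3WT cells.

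Some genes crossed sides between the treatments. With CPPD Nfkbiz averaged 47.1 ± 4.36 TPM in Tfe3KO and 31.98 ± 4.36 TPM in Tfe3WT cells (SD, n = 3 each), and with PBS 19.01 ± 3.03 TPM in Tfe3KO and 29.5 ± 3.10 TPM in Tfe3WT cells (1.16 ± 0.17, adjusted p = 0.0013). With CPPD Msr1 averaged 168 ± 7.15 TPM in Tfe3KO and 109.8 ± 4.91 TPM in Tfe3WT cells (SD, n = 3 each), and with PBS 36.6 ± 1.07 TPM in Tfe3KO and 48.6 ± 2.57 TPM in Tfe3WT cells (1.01 ± 0.11, adjusted p = 8.6e-05). Both were lower in Tfe3KO cells with PBS (adjusted p = 0.0078 and 0.0066) and higher with CPPD. Slc26a11, a sulphate transporter, did the reverse: with CPPD Slc26a11 averaged 4.50 ± 0.538 TPM in Tfe3KO and 6.74 ± 1.08 TPM in Tfe3WT cells (SD, n = 3 each), and with PBS 47.5 ± 6.31 TPM in Tfe3KO and 27.3 ± 0.645 TPM in Tfe3WT cells (-1.26 ± 0.16, adjusted p = 0.00051). The lower call of Slc26a11 with CPPD was lost with the compared groups alone (adjusted p = 0.068), without Tfe3KO CPPD replicate 3 (adjusted p = 0.070) and without Tfe3WT CPPD replicate 1 (adjusted p = 0.070). Flcn, Rragc, Gga2, Tecpr1, Neu1, Ctns, Slc28a2 and Ell2 also kept their difference of differences under all 22 alternatives, as did Gaa, Amz1, Slc25a44, Nfkbiz, Msr1 and Slc26a11. Mcoln1 (-0.59 ± 0.10, adjusted p = 0.0032) and Vps18 (-0.55 ± 0.10, adjusted p = 0.0076) lost it only where the 4 groups were fitted alone. Ptges was at 1.65 ± 0.164 TPM in Tfe3KO and 1.66 ± 0.187 TPM in Tfe3WT cells with PBS (1.08 ± 0.24, adjusted p = 0.033), a call that 12 of the 22 alternatives lost.

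**Figure D4:**
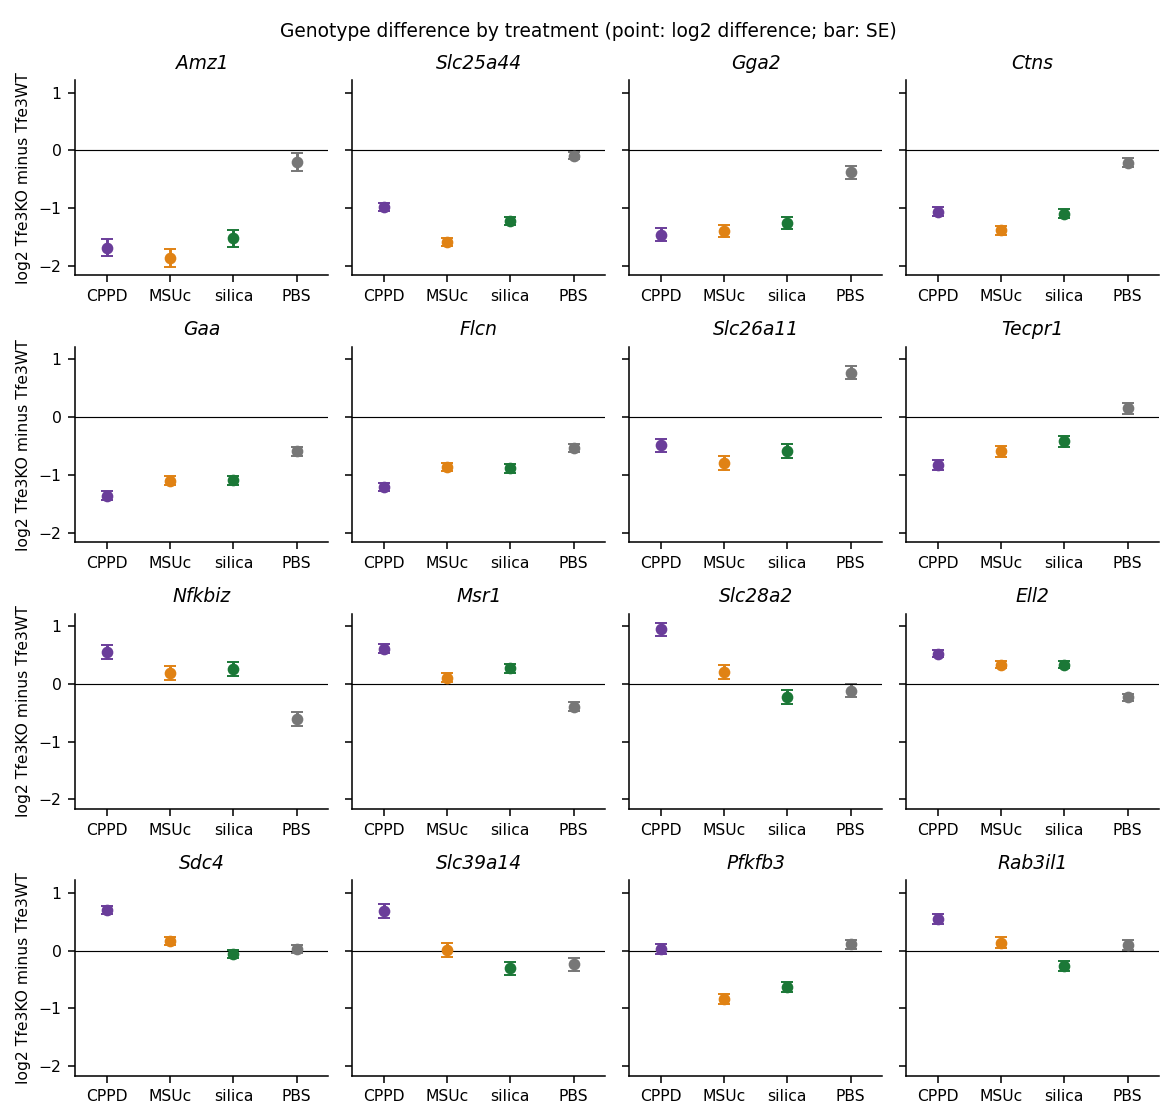
Log2 difference between Tfe3KO and Tfe3WT (y axis, error bars ± SE) of 16 genes in CPPD, MSUc, silica and PBS (x axis). Amz1, Slc25a44, Gga2 and Ctns lie well under 0 with each particle and nearer to 0 with PBS, Nfkbiz and Msr1 lie under 0 with PBS and above it with CPPD, and Sdc4, Slc39a14 and Slc28a2 are between 0.68 and 0.94 with CPPD.

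The genotype difference with CPPD was set beside that with the other particles. MSUc gave 1372 genes (10.7%) that differed by genotype and silica 1595 (12.5%). Of the 594 genes lower in Tfe3KO with CPPD, 453 were also lower with MSUc (76.3% of the 594 and 53.4% of the 848 lower with MSUc, which are 6.63% of all), and 425 with silica (71.5% of the 594 and 38.2% of the 1112 lower with silica, which are 8.69%). With PBS, 110 were shared (18.5% of the 594 and 62.1% of the 177 lower with PBS, which are 1.38%). In all, 369 were lower with CPPD, MSUc and silica, and 79 were called with CPPD alone. Of the 442 higher genes, 172 were shared with MSUc (38.9% of 442 and 32.8% of the 524 higher with MSUc, which are 4.1% of all), 154 with silica (34.8% of 442 and 31.9% of the 483 higher with silica, 3.77%) and 50 with PBS (11.3% of 442 and 39.7% of the 126 higher with PBS, 0.985%), with 72 in all 3 particles and 174 with CPPD alone. Of the lysosomal list, 27 of 50 members were lower with CPPD, 30 with MSUc, 31 with silica and 12 with PBS, and of the pump list 11 of 17 with CPPD, 10 with MSUc, 8 with silica and 5 with PBS. A call in 1 treatment alone does not show that the treatments differ.

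Tested directly, the genotype difference with CPPD differed from that with MSUc in 6 genes (0.0469%), all upward, and in 8 with the random block. Pfkfb3, a regulator of glycolysis, averaged 53.04 ± 6.15 TPM in Tfe3KO and 51.8 ± 2.71 TPM in Tfe3WT cells with CPPD, and 30.4 ± 1.84 TPM in Tfe3KO and 55.2 ± 1.57 TPM in Tfe3WT cells with MSUc (0.87 ± 0.12, adjusted p = 0.0058). Slc25a44 was lower with both particles, by less with CPPD (0.61 ± 0.10, adjusted p = 0.023). The others were Car13, Rgl1, Sla and Sdc4. None of the 6 was called when the Tfe3KO libraries numbered 1 were left out (904 genes had an unadjusted p under 0.05), and leaving out single libraries gave 1 to 5.

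Against silica, 16 genes (0.125%) differed, 15 upward and 1 downward, and 49 with the random block. Sdc4 averaged 459.8 ± 11.5 TPM in Tfe3KO and 281 ± 12.9 TPM in Tfe3WT cells with CPPD, and 225 ± 8.17 TPM in Tfe3KO and 234 ± 15.7 TPM in Tfe3WT cells with silica (0.76 ± 0.10, adjusted p = 0.002), a call kept under all 22 alternatives. Slc28a2 (1.16 ± 0.17, adjusted p = 0.0057), the zinc transporter Slc39a14 (0.99 ± 0.16, adjusted p = 0.015) and Rab3il1 (0.81 ± 0.12, adjusted p = 0.01) were next, each called higher in Tfe3KO with CPPD and not called with silica. Without the Tfe3KO libraries numbered 1 these 3 reached an adjusted p of 0.079. The downward gene was Nr4a2, a nuclear receptor of the immediate early class, which was at 4.65 ± 1.18 TPM in Tfe3KO and 3.98 ± 0.403 TPM in Tfe3WT cells with CPPD and at 62.04 ± 6.48 TPM in Tfe3KO and 25.4 ± 2.87 TPM in Tfe3WT cells with silica (-1.09 ± 0.21, adjusted p = 0.04). It lost the call under 16 of the 22 alternatives. The count was 3 without the Tfe3KO libraries numbered 1 and ranged from 4 to 28 when single libraries were left out.

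The series also holds binding sites of the factors themselves, from ChIP-seq of cells given MSUc rather than CPPD. These are the authors' lists of 4446 TFE3 and 5667 TFEB peaks gained with MSUc, none nearer than 3004 and 3001 bases to a gene start, with the nearest gene as the authors gave it. The series holds a single TFE3 ChIP-seq library with MSUc, so the gained TFE3 peaks have no treated replicate in it. A TFE3 peak was nearest to 27.1% of the genes lower in Tfe3KO with CPPD, 32.6% of those higher and 16.5% of all genes tested. For TFEB the shares were 26.9%, 38.5% and 17.8%. Of the 50 lysosomal genes, 21 had a TFE3 peak. Amz1 was nearest to 4 TFE3 peaks, 11320, 25600, 41637 and 44480 bases from its start, and Ctns to 1, 5809 bases from its start. Genes of either direction were thus nearest to a distal peak more often than genes at large, as a description without a test, and promoter peaks are not in these lists.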

How the data were processed

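Poly-A RNA of the macrophages was made into strand-specific dUTP libraries, per the labels' protocols. The authors deposited one table of transcript levels for the 24 libraries with no unit in its header. Its values were taken as TPM made by the authors (reads divided by transcript length and scaled to one total), since value times length steps by 1 fixed amount in each library; the kept transcripts, 1 per gene, summed to 530073 to 552605 per library. STAR, HOMER and the build mm10 are named in the submitters' processing notes without versions. Dividing by the step of 1 read gave whole reads for at least 99.9866% of values (tolerance 0.15), or 8854634 to 15850922 reads per library. The lowest chi-square per degree of freedom among 24 replicate pairs was 6.33, so no pair was counted as 1 sample. The peak lists carry distances to the nearest start, as the authors deposited them.

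The main test was planned for counts or TPM, and limma 3.58.1 (R 4.3.3, trend, two-sided) was used on log2(TPM + 1) for genes at 1 TPM or more in at least 3 libraries, with Benjamini-Hochberg adjustment over all 12796. Summaries and plots were made in Python 3.11.15 with pandas 2.3.3, numpy 2.4.6 and matplotlib 3.10.9. The script was tested on simulated data. Genes were named if they belong to the MiT/TFE family, were among the 15 largest falls or rises without overlap at a mean of 5 TPM or more, were called or among the 4 smallest p-values of a list, were among the 5 largest in a difference contrast, or were called near Tfe3. Transcripts under 300 bases and overlapping genes were left out of the size rules. Members and lists were chosen with earlier results of these data known. Libraries of the same number deviated together across treatments within a genotype (r = 0.117 to 0.372 between CPPD and the others), by the correlation of deviations from group means, so a random block with consensus correlation 0.148 was also fitted. Alternatives changed the scaling, pseudocount (0.1 and 5), filter, libraries fitted, block and libraries left out, and included limma-voom on the recovered reads.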

Additional observations from a re-analysis of the deposited data

Results flagged for a closer look

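These genes were set aside because their difference between Tfe3KO and Tfe3WT with CPPD departed from that in another treatment by a test of the difference itself, among the largest in either direction. Relative to PBS, the log2 difference of differences was -1.48 for Amz1, -1.36 for Cd28, -1.26 for Slc26a11, -1.16 for the pseudogene Gm8615 and -1.09 for Gga2. On the other side it was 1.23 for Cd40, 1.16 for Nfkbiz, 1.08 for Ptges, 1.06 for Slc28a2 and 1.01 for Msr1. Cd28 was not called in limma with CPPD itself (log2 difference -0.335 ± 0.201, adjusted p = 0.4). With PBS it was higher in Tfe3KO cells (log2 difference 1.02 ± 0.201, adjusted p = 0.0073). Cd28 and Cd40 each lost the call under 7 of 22 alternatives and Ptges under 12.

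Relative to MSUc, it was 0.87 for Pfkfb3, 0.85 for Rgl1, 0.84 for Sla, 0.82 for Car13 and 0.61 for Slc25a44. Pfkfb3 lost the call under 2 of 22 alternatives, Slc25a44 under 7, Rgl1 under 12, Car13 under 14 and Sla under 18. Relative to silica, it was 1.16 for Slc28a2, 0.99 for Slc39a14, 0.88 for Thbd, 0.81 for Rab3il1, 0.76 for Sdc4 and -1.09 for Nr4a2. Sdc4 lost the call under 0 of 22 alternatives, Slc28a2 under 1, Rab3il1 under 2, Slc39a14 under 3, Nr4a2 under 16 and Thbd under 17.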

How the results depend on the processing

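The count of 1036 genes ranged from 653 to 768 when a CPPD library was left out and from 851 to 1082 under the other alternatives without a fixed block. Of the named values, 0 were counted as reversed, which leaves aside uncalled values near 0, such as Tfeb, whose sign can change. Of the 144 named calls, 57 were lost under at least 1 of the 16 alternatives. Replicate numbers did not pair the genotypes (r = 0.029, 0.189 and -0.038 for the CPPD pairs); with the number as a fixed replicate block, 1239 genes passed, and 154, 3 and 10 for the differences from PBS, MSUc and silica. For the difference from PBS (119), the compared groups fitted alone gave 43 and the random block 252. Leaving out the Tfe3KO libraries numbered 1 gave 170, and leaving out a single library 67 to 327. For MSUc (6), a pseudocount of 0.1 gave 2, no filter 3, the groups alone 0 (1084 at an unadjusted p under 0.05), leaving out the Tfe3KO libraries numbered 1 also 0 (904), and single libraries 1 to 5. For silica (16), median-of-ratios scaling gave 5, a pseudocount of 5 gave 26, no filter 29, the groups alone 9, the random block 49, limma-voom 10, leaving out the Tfe3KO libraries numbered 1 gave 3, and single libraries 4 to 28. Genes lower with all 3 particles numbered 369, and 235 with the groups alone and 299 to 346 without a single library. Genes higher numbered 72, and 116 with median-of-ratios scaling, 30 with the groups alone and 48 to 66 without a single library. Without the Tfe3KO libraries numbered 1, 305 were lower and 61 higher with all 3 particles. The cause of these shifts was not tested. Depths were 9587624 to 15025046 reads, and their effect on the calls was not tested.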
